A study of Homo sapiens with 6 samples.

Results

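Transforming growth factor beta (TGF-beta) signalling was followed through 9 listed genes in ribosome-bound mRNA of MDA-MB-231 cells given CXCL12 with IGF1. The genes were the ligands TGFB1 and TGFB2, the receptors TGFBR1 and TGFBR2, the receptor-activated SMAD2 and SMAD3, their shared partner SMAD4, and the negative regulators SMAD7 and SKIL. They were taken by name, 9 of the 21619 genes counted, and all 9 were read in all 6 libraries. MDA-MB-231 is a human triple-negative breast cancer line with a mesenchymal character, here carrying EGFP fused to the ribosomal protein L10a. Pulling on EGFP with antibody-coated beads brings down ribosomes and the mRNAs they carry, a procedure known as TRAP. Every culture spent 24 h in 0.2% serum, the untreated ones included. At the lower dose cells received CXCL12 at 30 ng/mL and IGF1 at 10 ng/mL, and at the higher dose CXCL12 at 300 ng/mL and IGF1 at 100 ng/mL, both for 6 h. Each of the 3 groups had 2 biological replicates, a and b. CXCL12 is a chemokine read by CXCR4, and IGF1 is a growth factor read by the IGF1 receptor kinase. The factors were always given together, so a response cannot be assigned to one of them. Whether the EGFP-L10a cells were 1 clone is not given in the sources used here.

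TGF-beta ligands are secreted in a latent complex and, once released, join type II and type I receptors at the cell surface. The type II receptor TGFBR2 phosphorylates the type I receptor TGFBR1, which phosphorylates SMAD2 and SMAD3. These bind SMAD4, enter the nucleus and act on target genes, among them SMAD7 and SKIL, whose proteins dampen the same pathway. In breast cancer the pathway is known both for restraining growth of early lesions and for driving invasion and metastasis of later ones.

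The promoters below belong to the 2 members with called increases at the lower dose and the largest fold changes upward, SMAD7 and SKIL, and to TGFB2, the member that fell furthest at the higher dose. SMAD3 and SMAD4 are known to bind the letters CAGAC, which read GTCTG on the other strand. Capitals mark these letters on either strand. The sequences are RefSeq entries on GRCh38.p14, 300 bases each, running from 250 bases before the gene start to 50 after it. SMAD7 lies at chr18:48950916-48951215 (minus strand), SKIL at chr3:170357465-170357764 (plus strand) and TGFB2 at chr1:218345086-218345385 (plus strand).
SMAD7: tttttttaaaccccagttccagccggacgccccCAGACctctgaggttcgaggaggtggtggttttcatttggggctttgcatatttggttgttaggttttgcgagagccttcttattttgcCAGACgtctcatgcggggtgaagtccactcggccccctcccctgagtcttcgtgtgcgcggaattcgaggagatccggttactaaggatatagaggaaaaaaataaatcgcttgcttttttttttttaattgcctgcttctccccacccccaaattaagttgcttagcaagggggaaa
SKIL: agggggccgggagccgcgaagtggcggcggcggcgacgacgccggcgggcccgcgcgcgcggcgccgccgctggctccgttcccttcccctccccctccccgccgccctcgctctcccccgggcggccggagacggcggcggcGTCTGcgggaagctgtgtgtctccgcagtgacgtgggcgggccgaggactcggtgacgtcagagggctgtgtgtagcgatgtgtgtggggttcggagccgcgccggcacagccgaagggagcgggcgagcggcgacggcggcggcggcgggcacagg
TGFB2: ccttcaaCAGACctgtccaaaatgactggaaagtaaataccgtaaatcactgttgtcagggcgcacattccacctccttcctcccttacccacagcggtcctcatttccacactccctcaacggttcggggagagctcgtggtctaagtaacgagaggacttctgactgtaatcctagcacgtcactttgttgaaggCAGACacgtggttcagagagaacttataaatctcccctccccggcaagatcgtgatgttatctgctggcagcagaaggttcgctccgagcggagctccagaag
CAGAC occurred 2 times in the SMAD7 entry, 1 time in the SKIL entry and 2 times in the TGFB2 entry. It was present in 45.3% of 35116 promoter entries of the same length, so its presence does not set these genes apart. The palindrome GTCTAGAC, in which the letters of CAGAC are not complete, was in 0.202% of entries and in no entry of the 9 members. SMAD7 had 3 entries for different starts, of which the first is shown.

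Reads on genes ran from 26255079 to 30280322 per library. CPM are gene reads scaled to library size, with TMM factors for the genes tested. Of the line's markers, vimentin (VIM) was at 3670 CPM and CD44 at 937 CPM in untreated cells, and keratins KRT8 at 619 CPM and KRT18 at 561 CPM. Oestrogen receptor ESR1 was at 0.0330 CPM and progesterone receptor PGR at 0.0356 CPM, while ERBB2 (HER2) mRNA was present at 77.2 CPM, a level that does not show whether the gene is amplified. Of 6 line markers tested, 5 fell at the higher dose, with a median log2 fold change of −0.33. Over all genes tested, 28.2% were called lower there. The epithelial marker EPCAM, at 12.4 CPM in untreated cells, was not called (−0.01). CDH1, at 0.337 CPM in untreated cells, was too low to be tested. The part of these markers in the results was not tested. Over 7 markers of blood, endothelial, liver and glial cells, the summed level was 1.41 to 2.66 CPM per library, lowest in the higher dose libraries, and the T cell marker CD3E was at 0 in all of them. Total RNA was not analysed here, so amount of mRNA and loading on ribosomes cannot be told apart, nor can fewer cells carrying an mRNA and less of it per cell. P-values set a difference between groups against the spread between replicate libraries. The biological coefficient of variation was 1.79% as a common value over all genes, not for any 1 gene.

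At the higher dose the ligands, receptors and receptor-activated SMADs were lower in ribosome-bound mRNA, and SMAD7 was higher. Of the 9 members, 6 fell (TGFB1, TGFB2, TGFBR1, TGFBR2, SMAD2 and SMAD3), 1 rose (SMAD7) and 2 did not pass (SMAD4 and SKIL) by edgeR's quasi-likelihood test at an adjusted p under 0.05. In that comparison 28.2% of the 13548 genes tested were called lower and 28.1% higher, so calls of this kind were common. The median log2 fold change was −0.23 over the members and 0.00 over all genes. Of all genes tested, 6.90% were called and also changed at least 1.5-fold, and SMAD7 was the only member among them. Its estimate lay close to that size: leaving out 1 library at a time moved its log2 fold change between 0.54 and 0.68. Across 11958 genes, which are not independent replicates, longer transcripts had lower fold changes (Spearman rho −0.23). After a correction for longest transcript length and GC content the member median was −0.17, and 5 members fell, without SMAD3.

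At the lower dose the pattern was smaller and mixed. SMAD7, SKIL and SMAD3 rose, TGFB1 and TGFBR1 fell, and TGFB2, TGFBR2, SMAD2 and SMAD4 did not pass. The background was 16.7% of genes called higher and 15.9% called lower, and 0.760% were called at 1.5-fold or more, none of them members. The median log2 fold change was 0.01 over the members and 0.00 over all genes. The 3 increases depended on the fit: without untreated a only SKIL was called, and DESeq2 called 0.

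Set directly against the lower dose, the higher dose had less TGFB2, TGFBR1, TGFBR2, SMAD2 and SMAD3, which makes 5 members that fell, and 4 did not pass. All genes were called lower in 17.6% and higher in 16.4% of cases, and 1.33% were called at 1.5-fold or more, again without a member. The member median was −0.19 and that of all genes 0.00 on the log2 scale. Both doses share the untreated libraries, and the higher dose also enters the comparison between doses, so the 3 sets of values are not independent.

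**Figure D1:**
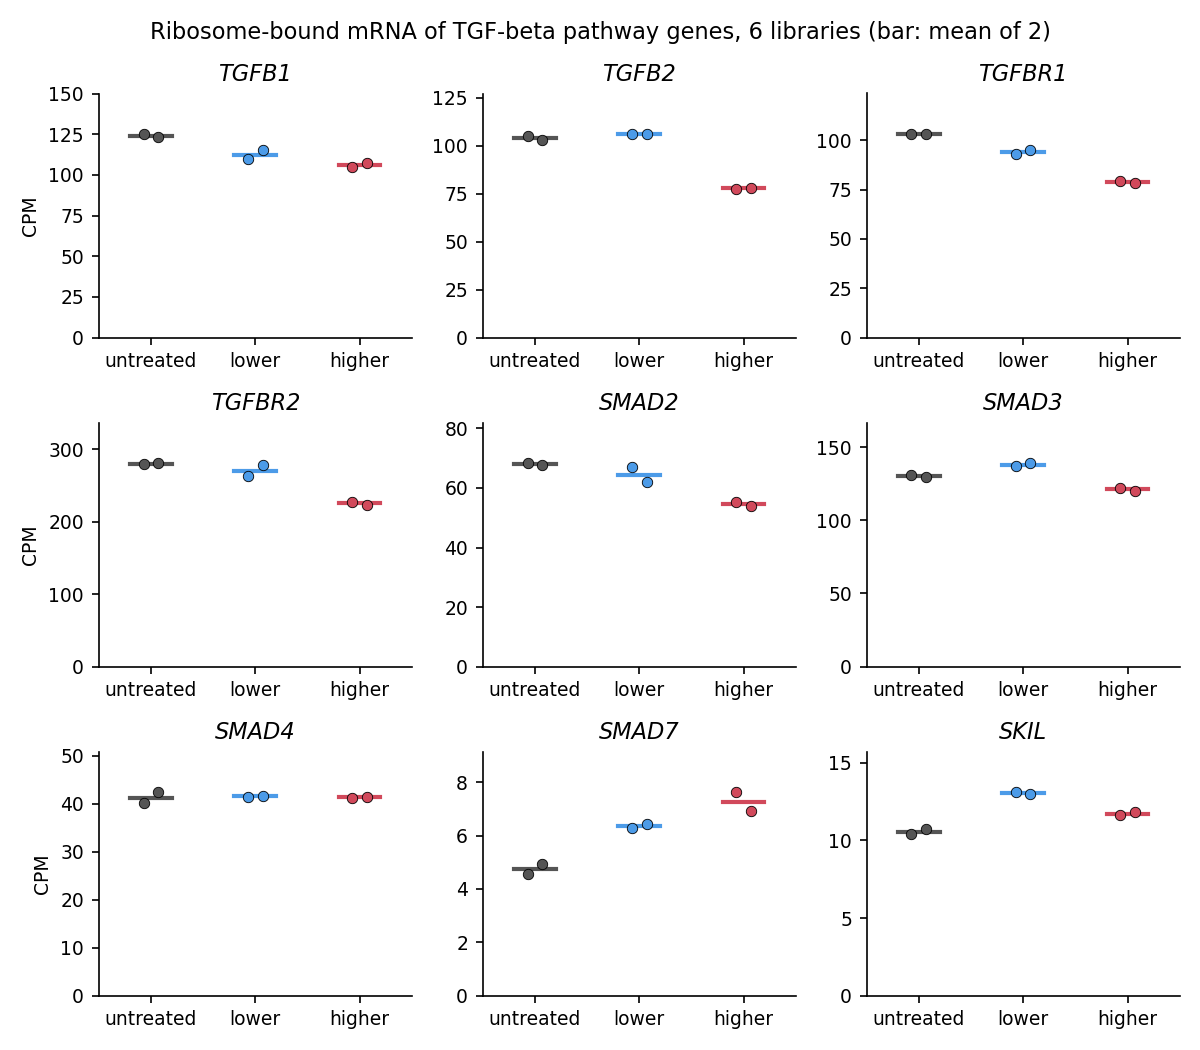
Level of each of the 9 genes in each library (y axis, CPM from 0; x axis, untreated, lower dose and higher dose; points, libraries a and b; bar, their mean). The higher dose libraries of TGFB2 lie at 77.7 and 78.2 CPM, below every other library, while SMAD4 stays between 40.1 and 42.4 CPM.

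The ligand genes fell with different dose patterns. TGFB1, the most widely expressed of the isoforms, was at 125 CPM in untreated a and 123 CPM in untreated b. It was at 109.9 and 115 CPM at the lower dose and at 105 and 107 CPM at the higher dose. The groups did not overlap and stepped down with dose. Its log2 fold change was −0.14 ± 0.03 (SE; 95% interval −0.21 to −0.08; edgeR adjusted p = 5.28e-04) at the lower dose and −0.23 ± 0.03 (−0.29 to −0.16; adjusted p = 7.59e-08) at the higher, which is a decrease by 14.5%. Between doses the difference of −0.08 ± 0.03 did not pass (edgeR adjusted p = 0.0566), and it passed under 8 of 15 alternative settings.

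TGFB2, the isoform that needs the co-receptor betaglycan for strong receptor binding, had untreated libraries at 105 and 103 CPM and both lower dose libraries at 106 CPM. At the higher dose it was at 77.7 and 78.2 CPM. The higher dose libraries thus stood well below the other 4, which lay within a few CPM of each other. The log2 fold change was 0.02 ± 0.03 (95% interval −0.05 to 0.09; edgeR adjusted p = 0.657) at the lower dose and −0.42 ± 0.04 (−0.49 to −0.34; adjusted p = 5.51e-15) at the higher dose, a decrease by 25%. The doses differed by −0.44 ± 0.04 (edgeR adjusted p = 8.65e-15). In percentile terms TGFB2 stood at 10.3 among all tested fold changes at the higher dose, where 0 is the most negative. TGFB3, the remaining isoform, was at 1.35 CPM in untreated cells and at the higher dose its value of −0.25 ± 0.25 did not pass (edgeR adjusted p = 0.417).

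Both receptor genes were lower at the higher dose. TGFBR1, the type I receptor kinase, was at 103 CPM in both untreated libraries, at 94.1 ± 1.29 CPM (mean ± SD, n = 2) at the lower dose and at 79.3 and 78.1 CPM at the higher dose. It went down in steps, and no library of one group reached the next. Its log2 fold change was −0.14 ± 0.03 (95% interval −0.21 to −0.07; edgeR adjusted p = 0.00155) at the lower dose and −0.39 ± 0.04 (−0.47 to −0.32; adjusted p = 3.69e-14) at the higher, a decrease by 23.9%. The step between doses was −0.26 ± 0.04 (edgeR adjusted p = 5.76e-08).

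TGFBR2, the type II receptor that binds the ligand first, had the most reads of the 9 genes. It was at 279.6 and 281 CPM untreated, 263 and 278 CPM at the lower dose and 228 and 223 CPM at the higher dose. The lower dose libraries differed from each other by more than lower dose b differed from the untreated libraries, and the higher dose libraries lay apart from all others. The lower dose value, −0.05 ± 0.03 (95% interval −0.11 to 0.01), did not pass (edgeR adjusted p = 0.175), and the higher dose value was −0.31 ± 0.03 (−0.37 to −0.25; adjusted p = 1.43e-13), a decrease by 19.5%. From lower to higher dose it fell by 0.26 ± 0.03 on the log2 scale (edgeR adjusted p = 2.55e-10).

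**Figure D2:**
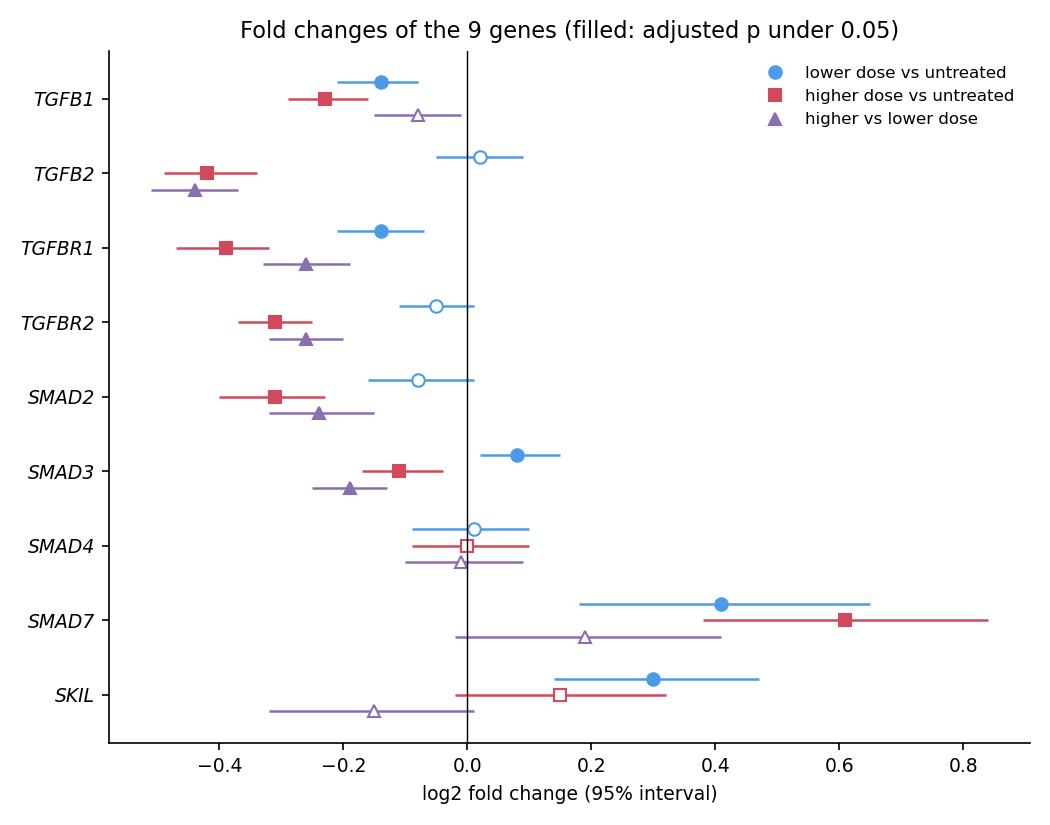
Log2 fold change with its 95% interval (x axis) for each gene (y axis) in the comparisons of lower dose with untreated, higher dose with untreated and higher with lower dose; filled markers passed an adjusted p of 0.05. The intervals of TGFB2 at the higher dose (−0.49 to −0.34) and of SMAD7 (0.38 to 0.84) lie on opposite sides of 0, and those of SMAD4 hold 0 in all 3 comparisons.

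The SMAD genes did not move together. SMAD2, which needs SMAD4 and other factors to act on DNA, was at 68.3 and 67.6 CPM untreated, 66.9 and 62.0 CPM at the lower dose, and 55.2 and 54.0 CPM at the higher dose. Only the higher dose libraries stood clear of the rest. The log2 fold change was −0.08 ± 0.04 (95% interval −0.16 to 0.01; edgeR adjusted p = 0.152) at the lower dose and −0.31 ± 0.04 (−0.40 to −0.23; adjusted p = 4.92e-09) at the higher dose, a decrease by 19.6%. The lower dose value passed when lower dose a was left out, at −0.13 (adjusted p = 0.0384).

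SMAD3, which binds DNA directly, was at 131 and 129.6 CPM untreated, 137 and 139 CPM at the lower dose, and 122 and 120.3 CPM at the higher dose. The lower dose libraries were the highest and the higher dose libraries the lowest, with no overlap. Against untreated cells its log2 fold change was 0.08 ± 0.03 (95% interval 0.02 to 0.15; edgeR adjusted p = 0.0382) at the lower dose and −0.11 ± 0.03 (−0.17 to −0.04; adjusted p = 0.00448) at the higher dose. The difference between doses was −0.19 ± 0.03 (edgeR adjusted p = 3.50e-06). The increase at the lower dose was lost under 9 of 15 alternatives, including leaving out untreated a (adjusted p = 0.0802), untreated b (0.147), lower dose a (0.104) or lower dose b (0.178). The decrease at the higher dose was 0.02 after correction for longest transcript length and GC content (adjusted p = 0.649) and −0.14 with median transcript length in its place (adjusted p = 9.26e-05); the longest SMAD3 transcript has 6247 nt and the median one 1530 nt.

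SMAD4, the partner shared by TGF-beta and BMP signals, was at 40.1 and 42.4 CPM untreated, 41.4 and 41.7 CPM at the lower dose, and 41.2 and 41.5 CPM at the higher dose. The untreated libraries enclosed all treated ones. Its log2 fold change was 0.01 ± 0.05 (95% interval −0.09 to 0.10; edgeR adjusted p = 0.919) at the lower dose and 0.00 ± 0.05 (−0.09 to 0.10; adjusted p = 0.971) at the higher dose. The interval leaves room for a change of up to 0.10 on the log2 scale. After correction for median transcript length and GC content the higher dose value was 0.13 and passed (adjusted p = 0.0203).

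The negative regulators were at low levels, and both rose at the lower dose. SMAD7, the inhibitory SMAD that blocks the type I receptor and brings SMURF ubiquitin ligases to it, had 120 and 150 reads in untreated a and b, 181 and 186 at the lower dose, and 215 and 197 at the higher dose. These came to 4.57 and 4.95 CPM untreated, 6.27 and 6.43 CPM at the lower dose, and 7.63 and 6.92 CPM at the higher dose. The groups rose in order of dose without overlap, and SMAD7 had the fewest reads of the 9 genes. It was 1.33-fold untreated at the lower dose (log2 0.41 ± 0.12, 95% interval 0.18 to 0.65; edgeR adjusted p = 0.00496) and 1.52-fold at the higher dose (0.61 ± 0.12, 0.38 to 0.84; adjusted p = 9.89e-06). Leaving out untreated a ended the lower dose call (0.36, adjusted p = 0.0572), as did DESeq2 (0.41, adjusted p = 0.0853). The step from lower to higher dose, 0.19 ± 0.11 (95% interval −0.02 to 0.41), did not pass (edgeR adjusted p = 0.166). Among tested genes SMAD7 stood at percentile 96.9 at the lower dose and 96.8 at the higher dose.

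SKIL encodes SnoN, a nuclear repressor that binds SMAD complexes. It had 274 and 325 reads in untreated cells, 377 in each lower dose library, and 328 and 337 at the higher dose. In CPM these were 10.4 and 10.7 untreated, 13.1 and 13.0 at the lower dose, and 11.6 and 11.8 at the higher dose. The lower dose libraries were highest and the higher dose libraries lay between them and the untreated ones. SKIL rose 1.23-fold at the lower dose (log2 0.30 ± 0.08, 95% interval 0.14 to 0.47; edgeR adjusted p = 0.00318), a call lost with DESeq2 (adjusted p = 0.0721). At the higher dose the value of 0.15 ± 0.08 (−0.02 to 0.32) did not pass (edgeR adjusted p = 0.132), nor did the difference between doses of −0.15 ± 0.08 (−0.32 to 0.01; adjusted p = 0.146). A lower response of SKIL at the higher dose is therefore not shown.

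Ratios of reads within a library do not depend on its size. SMAD7 had 4.42 and 4.78 reads per 100 TGFBR1 reads in untreated cells, 6.73 and 6.77 at the lower dose, and 9.62 and 8.85 at the higher dose, as both genes moved apart. SKIL had 7.96 and 8.27 reads per 100 SMAD3 reads untreated, 9.51 and 9.40 at the lower dose, and 9.56 and 9.83 at the higher dose, so that all treated libraries lay above the untreated ones. SMAD3 had 192 reads per 100 SMAD2 reads in both untreated libraries, 205 and 224 at the lower dose, and 220.3 and 223 at the higher dose. For TGFB1 against TGFB2 the ratio was 119 reads per 100 in both untreated libraries, 104 and 108 at the lower dose, and 135 and 137 at the higher dose. The balance of the 2 ligand mRNAs thus moved in opposite directions at the 2 doses. TGFBR2 against TGFBR1 was steadier, with 270.5 and 272 reads per 100 untreated, 283 and 292 at the lower dose, and 288 and 285 at the higher dose. These ratios are given as descriptions, without a test.

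**Figure D3:**
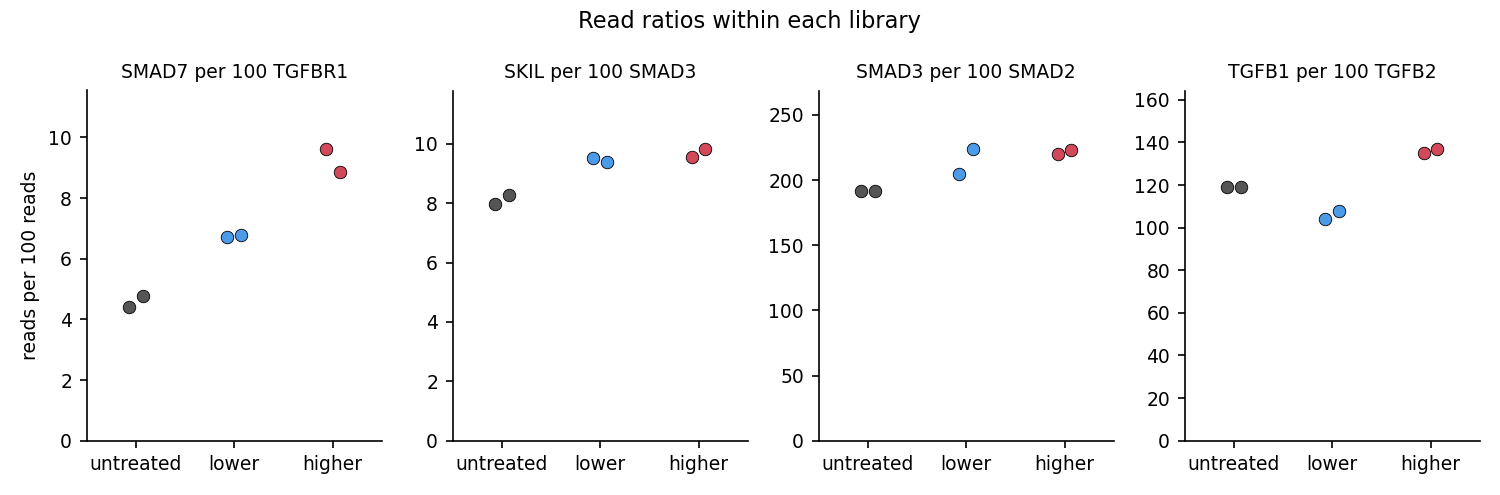
Reads of one gene per 100 reads of another in each library (y axes from 0; x axis, the 3 groups; points, libraries a and b). SMAD7 per 100 TGFBR1 climbs from 4.42 and 4.78 to 9.62 and 8.85, and TGFB1 per 100 TGFB2 is lowest at the lower dose (104 and 108) and highest at the higher dose (135 and 137).

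Levels between genes were compared per kilobase of exon, using the union of a gene's exons in GENCODE v29. In untreated cells the order was TGFBR2 (59.6 CPM per kb), TGFB1 (44.8), TGFB2 (20.6), SMAD3 (18.0), TGFBR1 (15.6), SMAD4 (4.63), SMAD2 (1.92), SKIL (1.46) and SMAD7 (1.05). Neighbours in this order did not overlap between the 2 untreated libraries. TGFBR2 stood at percentile 89.5 of 11958 tested genes with a length, and SMAD7 at percentile 19.2. The order of some neighbours rests on the length used. With the median transcript, SMAD3 was first at 85.1 CPM per kb, SMAD2 (6.50) stood above SMAD4 (4.86), and SMAD7 (3.72) stood above SKIL (3.64). The longest SMAD2 transcript has 34526 nt and the median one 10445 nt. SMAD3, with its much shorter median transcript, changed place most, from the fourth to the first.

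By the distance of centred log2 CPM over the 6 libraries, the genes with levels most like SMAD7 were CCNB1IP1 (distance 0.09), HAS2 (0.10) and GPBP1 (0.11). CCNB1IP1 had log2 fold changes of 0.43 and 0.63 at the lower and higher dose, and HAS2, a hyaluronan synthase, had 0.37 and 0.57. The genes most like TGFB2 were TM4SF1 (0.06), WIPI2 (0.07) and CTDSP2 (0.07), with higher dose values of −0.38, −0.48 and −0.40. All of these were near 0 at the lower dose, at 0.02, −0.03 and 0.07. The genes were picked for this likeness, and it is a description only.

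Genes listed under latency and activation of the ligands were lower at the higher dose. Of 12 listed, 10 were tested and all 10 fell, with a median log2 fold change of −0.43. Over all genes the median was 0.00, and 28.2% were called lower. At the lower dose 8 of the 10 fell, with a median of −0.24, against 15.9% of all genes. THBS1, thrombospondin 1, which can free latent TGF-beta, was at 785, 631 and 521 CPM on average in untreated, lower dose and higher dose cells, which at the higher dose was −0.59 ± 0.03 on the log2 scale (edgeR adjusted p = 4.68e-25). LTBP1, which tethers the latent complex to the matrix, went from 20.7 to 14.3 and 12.7 CPM and fell by 0.53 and 0.70 on the log2 scale at the lower and higher dose (edgeR adjusted p = 2.45e-08 and 4.01e-12). LTBP4 fell by 0.43 (edgeR adjusted p = 4.92e-14). The membrane protease MMP14 fell by 0.53 (adjusted p = 1.49e-23), and the integrin subunit ITGB5, part of a receptor that can activate the latent complex, fell by 0.38 (adjusted p = 6.37e-17). LRRC32 and ITGB6 were too low to be tested. THBS1 and MMP14 also act in cell adhesion and matrix turnover outside this pathway.

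**Figure D4:**
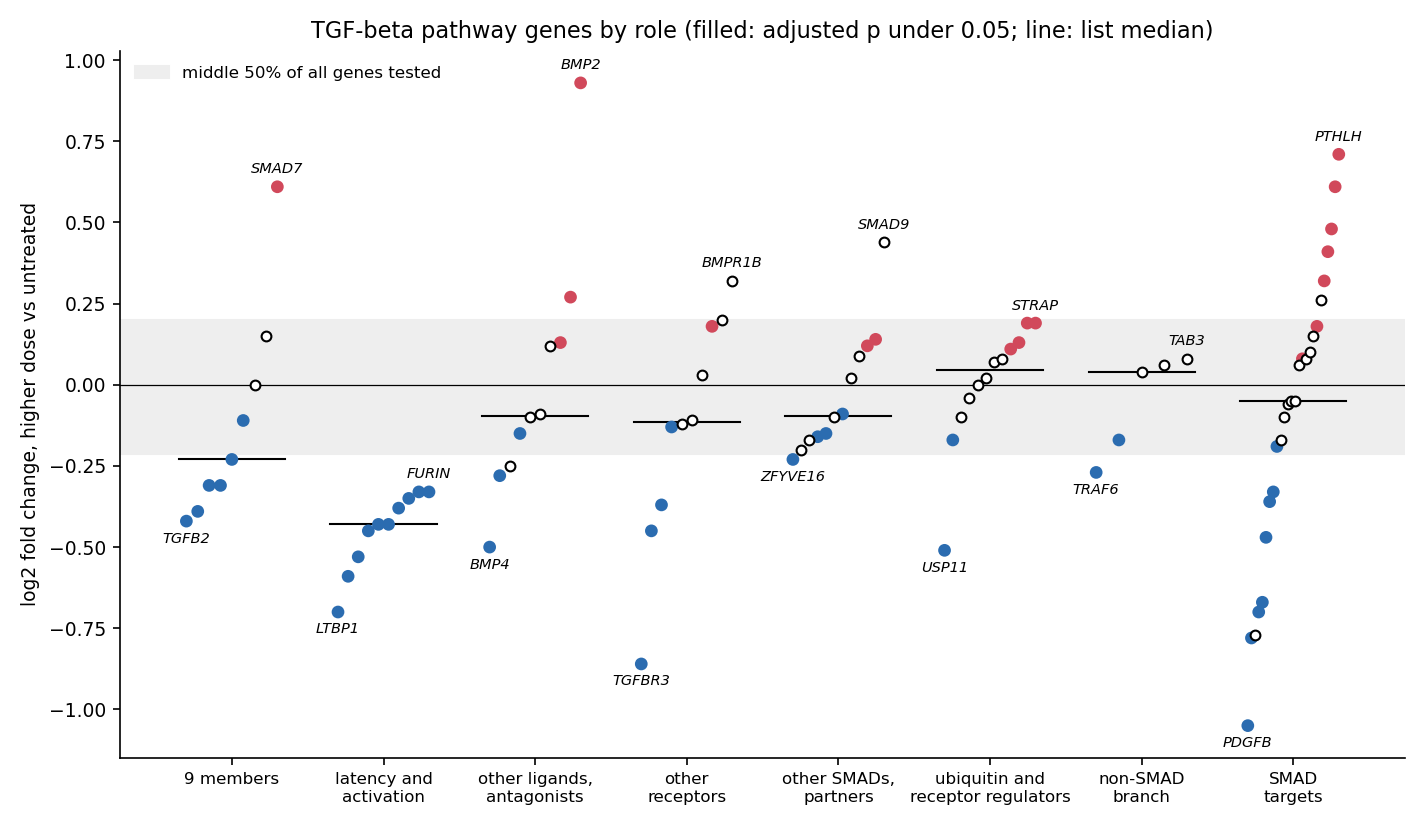
Log2 fold change at the higher dose against untreated (y axis) for genes listed by role (x axis); filled points passed an adjusted p of 0.05, the line is the list's median and the grey band spans the middle 50% of all genes tested. All 10 latency and activation genes lie below 0 with a median of −0.43, while SMAD target genes spread on both sides from PDGFB (−1.05) to PTHLH (0.71).

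Among the other ligands of the superfamily and their extracellular antagonists, 10 of 13 were tested, 3 rose and 3 fell at the higher dose, with a median of −0.09, which is near the 28.1% and 28.2% of all genes called higher and lower. At the lower dose 1 rose and 2 fell, where 16.7% of all genes rose and 15.9% fell. The number that fell was 1 with DESeq2, and it was also lower in some fits that left out 1 library. BMP4 fell from 209 to 148 CPM at the higher dose (log2 −0.50 ± 0.03, edgeR adjusted p = 1.29e-20), while NOG, the BMP antagonist noggin, rose from 161 to 195 CPM (0.27 ± 0.03, adjusted p = 9.19e-11). FST, the activin-binding follistatin, fell by 0.28 (edgeR adjusted p = 2.15e-09). The activin subunit INHBB fell by 0.15 (adjusted p = 0.00146), a call lost after length and GC correction (−0.07, adjusted p = 0.116) and without higher dose b (adjusted p = 0.0984). BMP2 rose by 0.93 ± 0.30 from 0.623 CPM (edgeR adjusted p = 0.00695), a call lost with DESeq2 (adjusted p = 0.105) and without untreated b (0.0832). Without untreated b the number that rose was 1.

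Of the other receptors and co-receptors, 10 of 11 were tested, 4 fell and 1 rose at the higher dose, with a median of −0.12, and 2 fell at the lower dose. Over all genes 28.2% fell and 28.1% rose at the higher dose and 15.9% fell at the lower dose, so the counts that fell were not far from the background. TGFBR3, betaglycan, which presents TGF-beta and above all TGFB2 to the signalling receptors, was at 12.4 and 12.5 CPM untreated, 9.98 and 9.44 CPM at the lower dose, and 6.17 and 7.58 CPM at the higher dose. It stepped down with dose without overlap. The log2 fold change was −0.36 ± 0.09 (edgeR adjusted p = 0.00112) at the lower and −0.86 ± 0.10 (adjusted p = 4.26e-11) at the higher dose. ENG, the co-receptor endoglin, fell by 0.37 (edgeR adjusted p = 6.23e-07) and the activin receptor ACVR2B by 0.45 (adjusted p = 2.29e-05). The BMP receptor BMPR2 fell by 0.13 (edgeR adjusted p = 0.0290), a call lost when either untreated or either higher dose library was left out (adjusted p = 0.0511 to 0.167). BAMBI, a decoy receptor and the 1 gene that rose, was chosen for mention after its value was seen (0.18 ± 0.07, edgeR adjusted p = 0.0367), and it lost the call without untreated b or higher dose b and under 4 other settings, DESeq2 among them.

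The other SMADs, their anchors and nuclear partners had small fold changes: 12 of 13 were tested, 2 rose and 4 fell at the higher dose, with a median of −0.10, and 1 rose and 1 fell at the lower dose. Over all genes 28.1% rose and 28.2% fell at the higher dose and 16.7% and 15.9% at the lower dose, so these counts are near or below the background. Without lower dose a neither of the lower dose calls was made. The one that fell, ZFYVE16, was also lost without untreated a, untreated b or lower dose b, and with DESeq2. At the higher dose 4 rose and 2 fell after length and GC correction, and 1 rose and 0 fell with DESeq2. Fewer also rose or fell in some fits that left out 1 library. SMAD5, a SMAD of the BMP branch, rose by 0.14 ± 0.04 (edgeR adjusted p = 0.00325). The 4 that fell had log2 fold changes of −0.09 to −0.23: ZFYVE16 (adjusted p = 0.00464), ZFYVE9 (0.0304), TRIM33 (0.0168) and the SnoN relative SKI (0.0250). Without higher dose b none of the 4 passed, and SKI was 0.05 after length and GC correction (adjusted p = 0.248). SMAD6, the inhibitory SMAD of the BMP branch, was singled out after its values were seen, as the closest relative of SMAD7. It was at 12.8 and 12.9 CPM untreated, 15.5 and 15.3 CPM at the lower dose, and 11.4 and 11.5 CPM at the higher dose. Unlike SMAD7, its libraries were highest at the lower dose and lowest at the higher dose. The log2 fold change was 0.26 ± 0.08 (edgeR adjusted p = 0.00624) at the lower dose, a call lost with DESeq2 (adjusted p = 0.108) and without lower dose a (0.0512), and −0.43 ± 0.08 (adjusted p = 1.40e-05) between the doses. At the higher dose against untreated cells it was −0.17 ± 0.08 and did not pass (edgeR adjusted p = 0.0758).

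Regulators of receptor and SMAD turnover were all tested, 12 of 12: 4 rose and 2 fell at the higher dose, with a median of 0.05, and 4 rose and 1 fell at the lower dose. The shares over all genes were 28.1% and 28.2% at the higher dose and 16.7% and 15.9% at the lower dose. The number that fell was 2 at the lower dose without lower dose a, and 1 at the higher dose without untreated a or higher dose b. SMURF2, a ubiquitin ligase that SMAD7 brings to the receptor, was at 202 and 210.1 CPM untreated, 239.7 and 239 CPM at the lower dose, and 236 and 234 CPM at the higher dose. It rose about equally at both doses, by 0.22 ± 0.03 (edgeR adjusted p = 3.08e-08) and 0.19 ± 0.03 (adjusted p = 1.48e-07). USP11, a deubiquitinase reported to act on the type I receptor, fell from 81.8 to 69.4 and 57.3 CPM, by 0.24 and 0.51 on the log2 scale (edgeR adjusted p = 1.16e-06 and 8.18e-17). STRAP, which binds receptors and SMAD7, rose by 0.19 (edgeR adjusted p = 3.53e-07). FKBP1A, which holds the type I receptor inactive, rose by 0.13 (adjusted p = 3.24e-05), and the call was lost after length and GC correction (0.04, adjusted p = 0.147).

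In the non-SMAD branch, which runs through TRAF6 and the kinase TAK1 (MAP3K7), all 5 genes were tested and 2 fell at the higher dose, with a median of 0.04, where 28.2% of all genes fell. At the lower dose 1 rose and 2 fell, where 16.7% of all genes rose and 15.9% fell. The number that fell was 1 after length and GC correction and 0 with DESeq2. It was also lower in some fits that left out 1 library. TRAF6 fell by 0.27 (edgeR adjusted p = 0.00172). TAB1 fell by 0.17 (adjusted p = 0.00720), a call lost under 5 of 15 alternatives. These were DESeq2 (adjusted p = 0.0856), the fit without higher dose a (−0.13) and the length and GC corrections (−0.09 with longest transcript length, adjusted p = 0.177). TAB2 and TAB3, adaptors of the same kinase, had 0.06 ± 0.04 (edgeR adjusted p = 0.157) and 0.08 ± 0.08 (adjusted p = 0.417). After length and GC correction TAB2 passed at the higher dose, at 0.09 (edgeR adjusted p = 0.0429).

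Genes known as SMAD-dependent targets were called in both directions, at the higher dose about as often as genes in general. The 27 listed genes include SMAD7 and SKIL of the members, and LTBP2, BAMBI, SMAD6 and TGIF1 of the lists above. Calls of these genes are thus counted on both lists. Of the 26 tested, 7 rose and 8 fell at the higher dose, with a median of −0.05. At the lower dose 6 rose and 10 fell. Over all genes 28.1% rose and 28.2% fell at the higher dose, and 16.7% and 15.9% at the lower dose. CTGF, a matrix-associated growth factor also driven by YAP, went from 396 to 331 and 231 CPM, which at the higher dose was −0.78 ± 0.03 on the log2 scale (edgeR adjusted p = 5.24e-30). IL11, a cytokine of breast cancer bone metastasis, fell by 0.70 (edgeR adjusted p = 5.60e-27), FN1, fibronectin, by 0.67 (adjusted p = 4.82e-26) and PDGFB by 1.05 (adjusted p = 9.24e-06). CDKN1A, the cell cycle inhibitor p21, rose from 109.8 to 128 and 146 CPM (0.41 ± 0.03, adjusted p = 2.76e-16). PTHLH, at 0.632 CPM untreated, passed narrowly (0.71 ± 0.31, edgeR adjusted p = 0.0459) and lost the call under 13 of 15 alternatives. The number that rose was 4 without higher dose b.

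PMEPA1, another feedback inhibitor that keeps SMADs from the receptor, was singled out after its values were seen. It was at 62.0 and 65.8 CPM untreated, 76.4 and 74.8 CPM at the lower dose, and 87.7 and 90.9 CPM at the higher dose, rising in order of dose as SMAD7 did. Its log2 fold change was 0.24 ± 0.04 (edgeR adjusted p = 2.42e-06) at the lower and 0.48 ± 0.04 (adjusted p = 6.05e-16) at the higher dose. The mRNAs of these target genes are also controlled by other pathways, and SMAD activity itself was not measured.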

How the data were processed

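Each library came as 1 file of whole-number read counts by gene symbol, as the authors deposited them. Per the submitters' processing notes, CASAVA 1.8.1, TopHat 1.4.0, HTSeq and hg19 were used. Neither the annotation nor the counting mode or strand setting is named (not given in the sources used here). HTSeq's 5 summary lines (9.40% to 10.2% of a library's reads) were left out. In GENCODE v29, TGFB2 and SMAD4 share exon sequence with TGFB2-OT1 and AC091551.1 on the same strand, neither of which is counted as a gene in the files.

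All 6 libraries entered 1 fit in edgeR 4.0.16 (R 4.3.3; TMM factors 0.997 to 1.003; filterByExpr; robust quasi-likelihood F test, two-sided; 3 residual degrees of freedom). Of 21619 genes, 13548 passed the filter, as did all 9 members. TMM takes most genes as unchanged, so changes are relative to other genes. P-values were adjusted by Benjamini-Hochberg across all genes tested, with a threshold of 0.05. CPM of tested genes are scaled by TMM. Genes that did not pass the filter, and the summed markers of other cell types, are scaled by library size alone. The SE was taken from the fold change and its F statistic (size of the log2 value divided by root F), and intervals are 95%. A count of 0 allows up to 3 reads. These limits cover counting error only. Each library was counted as a sample because the labels give 2 biological replicates per condition. Replicates differed beyond counting noise (chi-square per degree of freedom 1.52 to 1.98). That spread does not tell separate cultures from separate preparations of the same culture. Alternatives were DESeq2 1.42.0, other scalings, no filter, 2 groups only, a replicate block, a length and GC correction (88.3% of tested genes had both values) and leaving out each library.

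The members and lists were chosen with earlier results of these data known. All 9 members are named. From each other list the 4 genes with the smallest adjusted p at the higher dose are named, and any called there at 1.5-fold or more. Likeness was computed for the called member with the highest and the lowest fold change.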

Additional observations from a re-analysis of the deposited data

Results flagged for a closer look

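TGFB2 and SMAD3 had fold changes of opposite sign at the 2 doses, and the difference between doses passed edgeR's quasi-likelihood test in both. For TGFB2 the higher dose differed from the lower by −0.44 on the log2 scale (adjusted p = 8.65e-15), where the lower dose value against untreated cells was 0.02 and did not pass (adjusted p = 0.657). For SMAD3 the difference was −0.19 (adjusted p = 3.50e-06), and its increase at the lower dose was lost under 9 of 15 alternatives. After correction for longest transcript length and GC content its values were 0.15 at the lower and 0.02 at the higher dose. The signs were then not opposite, and the higher dose value did not pass (adjusted p = 0.649). With median transcript length the values were 0.05 and −0.14.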

How the results depend on the processing

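Of 405 alternative values for the 9 members, 368 kept their direction and side of the threshold. With the direction kept, 13 lost a call and 10 gained one, and 14 changed sign. Among these 14, SMAD3 at the higher dose also lost its call after length and GC correction, with or without the block. DESeq2 called 2562 genes in place of 4418 at the lower dose, 0 members higher in place of 3, and 2758 genes in place of 4612 between doses. Among SMAD target genes it called 3 higher and 5 lower at the lower dose in place of 6 and 10. Leaving out each library gave 1 to 3 members higher and 2 to 3 lower at the lower dose. With median transcript length, added after seeing the data, 1 member was lower at the lower dose (TGFB1 lost, −0.08, adjusted p = 0.0519) and 2 were higher at the higher dose (SMAD4 added). Calls of other named genes near the threshold were lost more often, such as PTHLH under 13 settings and BMPR2 under 8. Signs changed for small values. SMAD4 at the lower dose was 0.00 with upper-quartile factors and −0.03 to 0.05 when libraries were left out. At the higher dose it was −0.02 with upper-quartile factors, 0.00 with library size alone or 2 groups, and −0.04 to 0.05 when libraries were left out. Between doses it was 0.05 with length and GC correction, with or without the block, and 0.06 with median length. SMAD2 at the lower dose was 0.01, SMAD3 at the higher dose 0.02 and SKI 0.05 after that correction, with or without the block, and SKI was 0.06 with median length. The cause was not tested. The replicate block called 4320, 7561 and 4516 genes in the 3 comparisons and changed no member's call. Same-letter deviations correlated at −0.04 to 0.00, so no effect shared by libraries of the same letter was seen. This does not show whether libraries of the same letter were prepared together. Depth limits SMAD7 most, with 120 to 215 reads. Across 11958 genes, which are not independent, fold change and transcript length had Spearman rho of −0.23 at the higher dose.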
